A study of Mus musculus with 7 samples.

Results

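The comparison described here is between the mouse uterus 6 h after an injection of dihydrotestosterone (DHT) and the uterus after vehicle. It was taken by the titles of the samples and rests on 2 of the 7 microarrays of the series, 1 array of pooled tissue on each side. Both arrays hold the uteri of C57Bl/6 females, pooled before extraction. The protocols give their age as 10 to 11 weeks both on arrival and at removal of the ovaries, with 4 weeks of acclimation in between, and death followed the operation by 7 days. The DHT pool received 0.1 mg per mouse under the skin 6 h before death. The vehicle pool received the vehicle alone 24 h before death, so the effect of DHT cannot be told apart from that of a recent injection or of the time of day. The labels name no altered allele, and both groups had lost their ovaries. The text speaks of 10 mice, which may or may not be the size of each pool, and pooling leaves no spread between animals, so every difference below is a value of these arrays without a test. The titles were followed where the design text names 0.5 h in place of 18 h.

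DHT is the strong androgen that tissues make from testosterone, and it cannot be turned into estrogen. It binds the androgen receptor, a transcription factor that is held in the cytoplasm by heat shock chaperones until the ligand binds, and that then enters the nucleus and acts at DNA elements it largely shares with the glucocorticoid and progesterone receptors. In the uterus the receptor is known from the stroma and the smooth muscle, and androgens enlarge the organ after removal of the ovaries. The androgen receptor gene itself was not analysed here.

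Each array reports a signal for 12488 probe sets, short groups of oligonucleotides that each stand for a transcript. Leaving out 66 controls of the maker left 12422, of which 10833 name 1 gene. A floor of 145.9, the 40th percentile over the table, was set under all signals before log2 was taken. A probe set was called when the arrays differed at least 2-fold and the higher signal reached 291.8. On that rule 105 probe sets (0.845% of those tested) were higher 6 h after DHT and 101 (0.813%) were lower. At 3 h, against the same vehicle array, 99 (0.797%) were higher and 70 (0.564%) lower, and at 12 h 147 (1.18%) and 117 (0.942%). The 6 h array differed from the vehicle array at more probe sets (206) than from any other array, and from the 12 h array at the fewest, 63. Of the 105 higher probe sets, 36 were also 2-fold higher at 3 h and 58 at 12 h. Of the 101 lower ones, 20 were also 2-fold lower at 3 h and 41 at 12 h. These neighbouring ratios share the vehicle array with the 6 h ratio, so a low or high value on that array enters all of them.

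Represented by their brightest probe set, 6326 genes had a signal above the floor on any of the 7 arrays, be it only a single array. These are the genes and list members called above the floor in what follows. Of them 81 (1.28%) were higher by 2-fold or more at 6 h and 72 (1.14%) lower. These shares are the background for the counts of called members in the lists below. Of all genes 2932 (46.3%) were above 0 and 3058 (48.3%) below. The median log2 ratio was 0, with quartiles at -0.23 and 0.22. Over the whole table the median signal was 237 on vehicle and 227 at 6 h. The median signal of the higher probe sets was 234.0 on vehicle and 571 at 6 h, and 23 of them were at the floor on vehicle, where the log2 ratio is only a lower bound. That of the lower ones was 473 on vehicle and 189 at 6 h, with 27 at the floor at 6 h. Where a gene had a next brightest probe set above the floor, the ratios of the pair had a Pearson correlation of 0.19 across 1077 genes, which are not independent replicates. The next probe set had the same sign for 2 of 9 genes called higher and 4 of 14 called lower. For most of these genes a call on the brightest probe set was therefore not met by the next one. Of 23 genes named by rule that have a next probe set, it had the same sign for 11, the opposite sign for 8 and a ratio of 0 for 4. Its value is given below for those of opposite sign that the text describes. Not described further are Ddb1, Dhodh and Pdgfra, with log2 ratios of -0.82, -0.28 and -0.38. On the next probe set these genes had 0.21, 0.30 and 0.79. With the median of the other 6 arrays as the reference in place of the lone vehicle array, 26 probe sets were higher and 38 lower at 6 h, and with a floor at the 20th percentile 334 and 436. In what follows a pair of signals gives vehicle first and 6 h second, and a value in brackets is the log2 ratio of 6 h to vehicle.

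**Figure D1:**
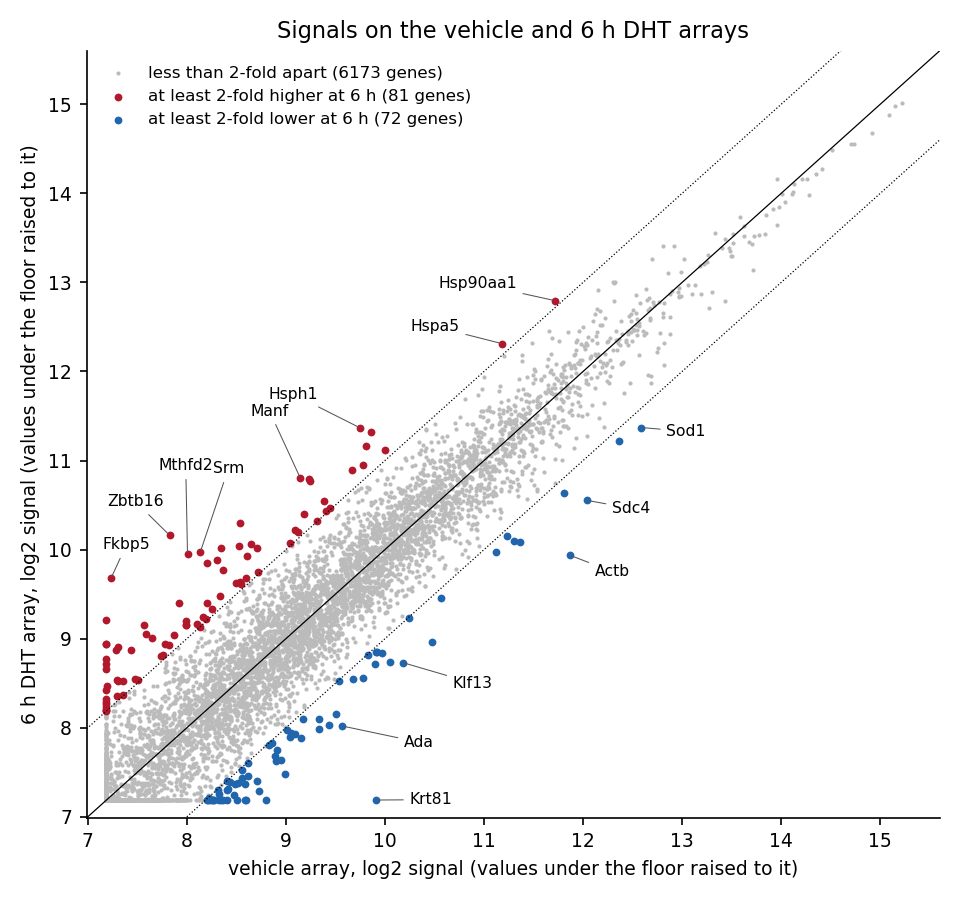
Log2 signals of 6326 genes on the vehicle array (horizontal) and on the 6 h DHT array (vertical), 1 point per gene, with signals under 145.9 raised to that floor; the solid line marks equal signals and the dotted lines a 2-fold difference. The 81 higher genes (red) lie mostly at low vehicle signals, with Hsp90aa1 and Hspa5 the brightest of those labelled, and among the 72 lower genes (blue) Sod1, Sdc4 and Actb are bright.

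Fkbp5 and Zbtb16, which had the highest ratios of the genes named, and Hsd11b2 are known as targets of steroid receptors. Fkbp5, a co-chaperone of steroid receptors whose gene responds to androgen and glucocorticoid, had a signal of 150.5 on vehicle and 818 at 6 h, a log2 ratio of 2.44 or 5.44-fold, the highest of all genes named here. Zbtb16, the zinc finger repressor also known as PLZF, had 227 and 1146, a log2 ratio of 2.34. Hsd11b2, the enzyme that inactivates glucocorticoids and so shields the mineralocorticoid receptor, had 326 and 1036 (1.67). Against vehicle these 3 genes had log2 ratios of 1.13, 2.16 and 0.98 at 3 h, and of 2.78, 2.07 and 1.32 at 12 h. Fkbp5 was thus still below its 12 h level at 6 h, while Zbtb16 and Hsd11b2 had their highest signals of all 7 arrays there.

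They belong to a list of genes shared by the androgen and glucocorticoid receptors, of which 23 members were above the floor. The list had the highest median of the 54 lists with at least 5 such members, 0.59 (0.49 at 3 h and 0.27 at 12 h), with 15 members above 0, 8 below and 3 at least 2-fold higher. Moderate ratios came from Per1, a clock gene with a steroid response element (0.98), Errfi1, an inhibitor of the EGF receptor (0.94), Sgk1, the kinase that regulates sodium channels (0.65), and Dusp1, a phosphatase of MAP kinases (0.62). Other members did not share the direction. Pdk4, which restrains glucose oxidation, had 366 on vehicle and 220.4 at 6 h (-0.73), Glul, glutamine synthetase, had a log2 ratio of -0.44, and the metallothioneins Mt1 and Mt2 had log2 ratios of -0.22 and 0.10. The median of this list depended on the processing, with 0.13 for a floor at the 20th percentile, 0.29 for one at the 60th and 0.18 against the median of the other 6 arrays.

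A list of androgen-response genes described mostly in prostate lay near 0, with a median of -0.04 over 23 members, 10 above and 12 below 0. Besides Fkbp5 its only other 2-fold higher member was Srm, spermidine synthase, with 281 and 1001 (1.83). Tmprss2, a serine protease and a marker of androgen action in prostate, had a log2 ratio of -0.38, Ndrg1, a stress-response gene, -0.41, and Igfbp3, which binds insulin-like growth factors, 4755 and 3208 (-0.57). Nuclear receptors and their cofactors had a median of 0.09, and Esr1 and Pgr, the estrogen and progesterone receptors, had log2 ratios of 0.09 and 0.11. The next brightest probe set of Esr1 had a log2 ratio of -0.59. In a list of steroid, thyroid hormone and retinoid enzymes the median was 0.04 over 13 members, of which Hsd11b2 and Aldh1a2 were at least 2-fold higher. Aldh1a2, which makes retinoic acid in uterine stroma, was under the floor on vehicle (116) and had 593 at 6 h, at least 4.06-fold higher, and Rarg, a retinoic acid receptor from the receptor list, had 155 and 291 (0.91). The stromal hormone enzyme Dio2, which activates thyroid hormone, had a log2 ratio of 0.32, and Star, which starts steroid synthesis, -0.31.

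The gene groups with the next highest medians all serve protein production and folding: heat shock proteins (0.54), ER chaperones (0.53), aminoacyl-tRNA synthetases (0.47) and the nucleolus (0.46). Of the 81 genes called higher, 20 belonged to 10 lists of protein production and folding (24.7%, where 3.98% of the 6326 genes do), and of the 72 called lower 3 did (4.17%). Over the 57 lists together these shares were 42.0% of the higher and 9.72% of the lower genes, against 18.9% of all. The lists were drawn up with results of these data known, so these shares describe the lists and carry no test. Of the 54 medians 11 were at least 0.2 and 4 were -0.2 or lower.

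**Figure D2:**
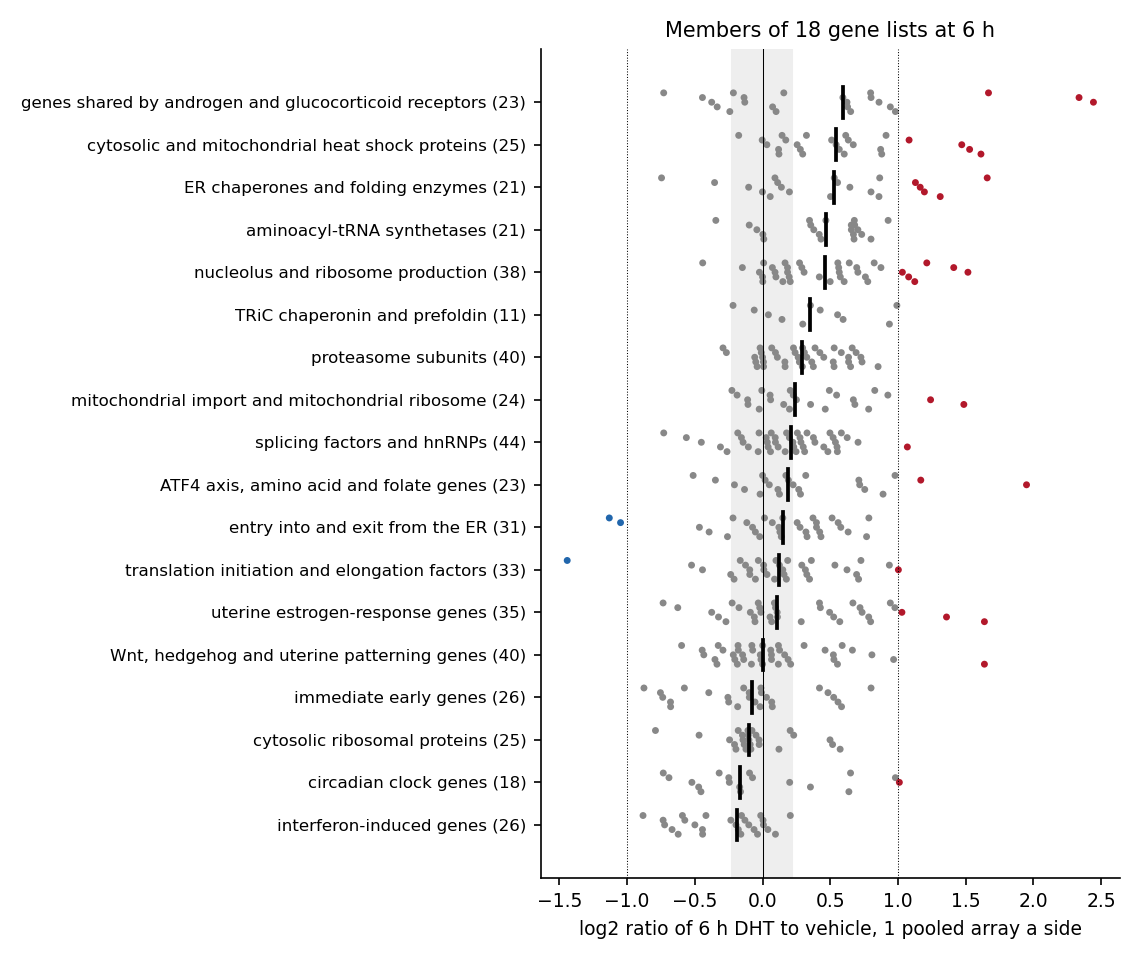
Log2 ratio of the 6 h DHT array to the vehicle array for each member above the floor of 18 gene lists (points; number of members in brackets), with the list median (black bar) and the middle part of all 6326 genes between their quartiles of -0.23 and 0.22 (grey band). Red and blue points are at least 2-fold higher or lower; the medians run from 0.59 for genes shared by androgen and glucocorticoid receptors to -0.19 for interferon-induced genes.

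Chaperones of the endoplasmic reticulum fold proteins on their way to the cell surface, and their genes are known to respond together when unfolded protein collects there. Manf, a small secreted protein of that response, had a signal of 566 on vehicle and 1787 at 6 h, a log2 ratio of 1.66. Hspa5, the main ER chaperone known as BiP, was bright on both arrays with 2325 and 5084 (1.13). Its partners Dnajb11 and Dnajc3 had log2 ratios of 1.16 and 1.31, and the second probe set of Dnajc3 had a log2 ratio of 1.25. Creld2, a folding enzyme of the same response, had 296 and 677 (1.19). These 5 were at least 2-fold higher, where 1.28% of all genes were, and of the 21 members 17 were above 0 and 4 below. The disulfide isomerases were uneven. Pdia6, Pdia4 and Pdia3 had log2 ratios of 0.86, 0.64 and 0.50, while P4hb, the most abundant isomerase and a part of prolyl hydroxylase, had 2602 and 1551 (-0.75). The next brightest probe set of P4hb had a log2 ratio of 0.53, opposite in sign, and that of Pdia6 had 0.91. The brightest probe set of P4hb had -0.98, -0.02 and -0.58 at 12, 18 and 24 h. Control probe sets low at 6, 12 and 24 h are given below, and a link to P4hb was not tested. The list median was 0.15 at 3 h and 0.81 at 12 h against the same vehicle array, and 4 of the 21 members had their highest signal of all 7 arrays at 6 h, where 14.1% of all genes did. Against the median of the other 6 arrays the list median was 0.26, and with a floor at the 60th percentile 0.20.

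A known regulatory sequence was common near the start sites of these genes. The ER stress response element, searched on both strands as CCAAT and CCACG with 9 bases of any kind between them, is the site through which the factors ATF6 and NF-Y act. It was looked for in RefSeq promoters of assembly GRCm38.p6, from 250 bases before to 50 after each gene's start, and was found in 6 of the 19 list members that have a promoter there (31.6%), in 0.137% of all 27025 promoters and in 0.198% of the 5063 promoters of genes above the floor. The windows of all 6 are shown, so that the fixed letters and the varied bases between them can be seen, 5′ to 3′ along the gene's strand with the match in capitals.
Hspa5: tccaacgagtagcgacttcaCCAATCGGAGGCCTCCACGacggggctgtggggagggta
Hsp90b1: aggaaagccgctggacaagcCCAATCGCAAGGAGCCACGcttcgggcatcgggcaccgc
Pdia6: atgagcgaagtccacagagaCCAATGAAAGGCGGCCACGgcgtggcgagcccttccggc
Dnajc3: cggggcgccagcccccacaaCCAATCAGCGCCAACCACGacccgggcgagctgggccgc
Creld2: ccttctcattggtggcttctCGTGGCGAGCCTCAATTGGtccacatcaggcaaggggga
Canx: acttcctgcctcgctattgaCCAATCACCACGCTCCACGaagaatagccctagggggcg
The windows lie at chr2:34772005-34772063, chr10:86705618-86705676, chr12:17266471-17266529, chr14:118937807-118937865, chr15:88819500-88819558 and chr11:50325780-50325838 in that order, and in Creld2 the match runs on the opposite strand. The match begins 65 bases before the start of Hspa5 and 212 before that of Hsp90b1, the ER member of the HSP90 family, which holds 2 matches. Of the 6 genes 5 were above 0 at 6 h, with a median log2 ratio of 1.00, and the members with a promoter but without the letters had a median of 0.14. Canx, the lectin chaperone calnexin, carried the element and had 1008 and 788 (-0.35), with the next brightest probe set at 0.03. Manf, the list's highest gene, had no match in this window. A match in these letters is a description of the sequence and does not show that a factor was bound.

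Genes of entry into and exit from the ER had a lower median, 0.15, with 21 of 31 members above 0. Sec23b, a coat protein of vesicles leaving the ER, had a log2 ratio of 0.78, Sec61b, part of the channel through which proteins enter, 0.77, and Lman1, a cargo receptor, 0.63. The next brightest probe set of Sec23b had a log2 ratio of -0.04. Kdelr2, a receptor that returns ER proteins, went the other way with 1004 on vehicle and 458 at 6 h (-1.13), as did Sec62, a partner of the channel, with 346 and 168 (-1.05). Kdelr2 was higher than vehicle at 3 h (0.61) and lower again at 12 h (-1.66), and its course is set beside that of control probe sets below. For Sec62 the next brightest probe set had a log2 ratio of 0.37, opposite in sign.

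Heat shock proteins of the cytosol and the mitochondria include the machinery that holds steroid receptors ready for ligand. Of the 25 members above the floor 23 were above 0 and 2 below. Among them 12 had their highest signal of all 7 arrays at 6 h, where 14.1% of all genes did. Hsph1, a nucleotide exchange factor of the Hsp70 family, had 862 and 2637 (1.61). The inducible Hsp70 genes Hspa1a and Hspa1b had 604 and 1743 (1.53) and 926 and 2566 (1.47), but they are nearly identical and the array may not tell them apart. Hsp90aa1, the stress-inducible HSP90 that binds steroid receptors, was among the brightest genes called, with 3359 and 7108 (1.08). Its cofactors followed at less than 2-fold, with Stip1, which passes clients from Hsp70 to HSP90, at 0.91 and Fkbp4, the co-chaperone of active steroid receptors, at 0.57. The median of the list was 0.38 at 3 h and 0.27 at 12 h against the same vehicle, and the 6 h median was 0.27 against the median of the other 6 arrays. Hsph1, Hspa1a and Hspa1b were among the 5 genes that lay farthest above the other 6 arrays, after the dim genes Bcl3 and Cacna1g. Of these, Bcl3 was above the floor on the 6 h array alone.

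Hspe1 and Hspd1, the mitochondrial chaperonin pair HSP10 and HSP60, are transcribed away from each other and share their start region. Hspe1 had 1297 and 2373 (0.87) and Hspd1 4604 and 6556 (0.51), but the next brightest probe set of Hspd1 had a log2 ratio of -0.88, opposite in sign. The heat shock element, searched on both strands as GAA, TTC and GAA with 2 bases of any kind after each of the first 2, was found in 4 of 20 list promoters (20.0%) and in 0.662% of all promoters, namely in Hspe1, Hspd1, Hsph1 and Chordc1, whose product binds HSP90. The windows of the mitochondrial pair overlap and each gene has 2 matches, so the same stretch counts for both genes. The window of Hspe1 is shown along its strand, at chr1:55088039-55088091. Its first match, on the opposite strand, is in capitals, and the other overlaps it.
Hspe1: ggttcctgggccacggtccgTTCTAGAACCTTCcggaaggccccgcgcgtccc
The 4 genes had a median of 0.69 and the list members with a promoter but without the letters 0.31. Chordc1, with 3 matches, had 1012 and 1118 (0.14), so matches did not order the genes. The ring chaperonin TRiC, which folds actin and tubulin, had a median of 0.35 over 11 genes with prefoldin, led by Cct8 (0.99) and Cct3 (0.94), while Cct2 had a log2 ratio of -0.22.

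The nucleolus makes ribosomes, and its genes are known to be high in growing tissue. Of 38 members above the floor 34 were above 0. At least 2-fold higher were 6 of the 38, where 1.28% of all genes were. Among the 38 members 24 had their highest signal of all arrays at 6 h, where 14.1% of all genes did. Ddx21, an RNA helicase of rRNA processing, had 368 on vehicle and 1053 at 6 h (1.52), and Rrs1, which assembles the large subunit, 401 and 1067 (1.41). Nop56, a core protein of the particles that methylate rRNA, had a log2 ratio of 1.21, Nhp2, a core protein of those that make pseudouridine, 1.12, Nolc1, their chaperone, 1.08, and Tsr1, which matures the small subunit, 1.03. Of the bright members nucleolin (Ncl) had 3288 and 5322 (0.70), and nucleophosmin (Npm1) 5283 and 5289 (0.00). Imp4, an early processing factor, was the lowest with -0.44. The median was 0.22 at 3 h and 0.35 at 12 h. For 6 h it was 0.30 against the median of the other 6 arrays and 0.29 with a floor at the 60th percentile. The E-box CACGTG, through which Myc acts, was found in 9 of 32 list promoters (28.1%) and in 12.1% of the promoters of genes above the floor. Members with it had a median of 0.42 and those without it 0.57. Myc itself had 241 and 337 (0.48).

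Leading genes of other routes of growth were also above vehicle. In the polyamine list, Srm (1.83) was followed by Azin1, an inhibitor of the protein that degrades ornithine decarboxylase (0.84), and Odc1, ornithine decarboxylase, which begins the pathway (0.51). Sat1, the enzyme of polyamine breakdown, had 2227 and 1005 (-1.15). Among 14 genes of purine and pyrimidine synthesis 11 were above 0, with Cad, which starts pyrimidine synthesis, at 0.84 and Gart, of the purine route, at 0.56. Genes of mitochondrial import and the mitochondrial ribosome had a median of 0.24, with 18 of 24 above 0. Mrps12, a mitochondrial ribosomal protein, had 242 and 678 (1.49) and was level with vehicle at 3 h (0.00). Tomm40, the channel of the outer membrane, was under the floor on vehicle (122) and had 345 at 6 h, at least 2.36-fold higher.

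Aminoacyl-tRNA synthetases load amino acids onto tRNA, and many of their genes are targets of the transcription factor ATF4. None of the 21 genes was called, where 1.28% of all genes were called higher and 1.14% lower. Of the 21 genes 18 were above 0, with quartiles of the list at 0.35 and 0.68. The highest, Cars, was under the floor on vehicle (47.5) and had 277 at 6 h, at least 1.90-fold higher. Rars, Tars, Gars, Aars, Eprs, Hars and Nars, for arginine, threonine, glycine, alanine, glutamate with proline, histidine and asparagine, lay between 0.66 and 0.70, and Iars, for isoleucine, had 789 and 1374 (0.80). Kars, for lysine, had a log2 ratio of -0.35 and Wars, for tryptophan, -0.10, with 0.32 on its next brightest probe set. The list median was 0.12 at 3 h and 0.47 at 12 h. Of the 14 members with a promoter 5 (35.7%) held the amino acid response element TGATGNAA on either strand, against 4.51% of all promoters: Aars, Gars, Iars, Tars and Yars. The windows of Aars, for alanine, at chr8:111033710-111033757 and Gars, for glycine, at chr6:55037951-55037998 are shown since they lie wholly before the start, with the match in capitals on the opposite strand.
Aars: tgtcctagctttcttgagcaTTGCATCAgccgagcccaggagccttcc
Gars: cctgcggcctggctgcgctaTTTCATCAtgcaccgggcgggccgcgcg
The 5 genes with the element had a median of 0.68 and those with a promoter but without it 0.36. Yars, for tyrosine, had a log2 ratio of 0.43 on its brightest probe set and of -1.04 on the next.

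ATF4 and its neighbours were higher too, though less evenly. Atf4 had 1147 and 1935 (0.75), below its 3 h ratio of 1.23, and Ddit3, which encodes the stress factor CHOP, 0.89. Mthfd2, a mitochondrial folate enzyme, was the fourth highest gene named, with 257 and 993 (1.95), and Atf5, a factor related to ATF4, had 668 and 1499.9 (1.17). Within serine synthesis Psat1 had a log2 ratio of 0.98, but Phgdh, the first enzyme, had a log2 ratio of -0.51, and Asns, asparagine synthetase and a usual ATF4 target, 0.12. The list median was 0.19. Xbp1, the factor of the unfolded protein response that also marks plasma cells, had 1313 and 2149 (0.71).

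Proteasome subunits form the machine that degrades tagged proteins, and their ratios were small and mostly of one sign. Of 40 members 32 were above 0 and 7 below. None was called, where 1.28% of all genes were called higher and 1.14% lower. Among the 40 members 14 had their highest signal at 6 h, where 14.1% of all genes did. Psmb6 and Psmb5, catalytic subunits of the constitutive particle, had log2 ratios of 0.85 and 0.73, with the next brightest probe set of Psmb5 at -0.11. Their immune counterparts Psmb9 and Psmb8, which replace them under interferon, had log2 ratios of 0.01 and 0.10. Splicing factors had a median of 0.21, with Hnrnpr at 558 and 1172 (1.07) and Cirbp, the cold-inducible RNA-binding protein, at -0.73. Translation factors had a median of 0.12, with Eif3j1, a factor of initiation, at 637 and 1276 (1.00) and Eef1b2, an elongation factor, at 424 and 156 (-1.44). Ribosomal protein genes, whose products the nucleolus assembles, lay on the other side: 19 of 25 were below 0, with a median of -0.10. The median was 0 after quantile normalization and -0.04 with the medians of the arrays set equal, so it depends on the scaling. Rpl41 was bright with 38116 and 33019.6 (-0.21), and the lowest member, Rps29, was dim with 339.8 and 196 (-0.79).

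**Figure D3:**
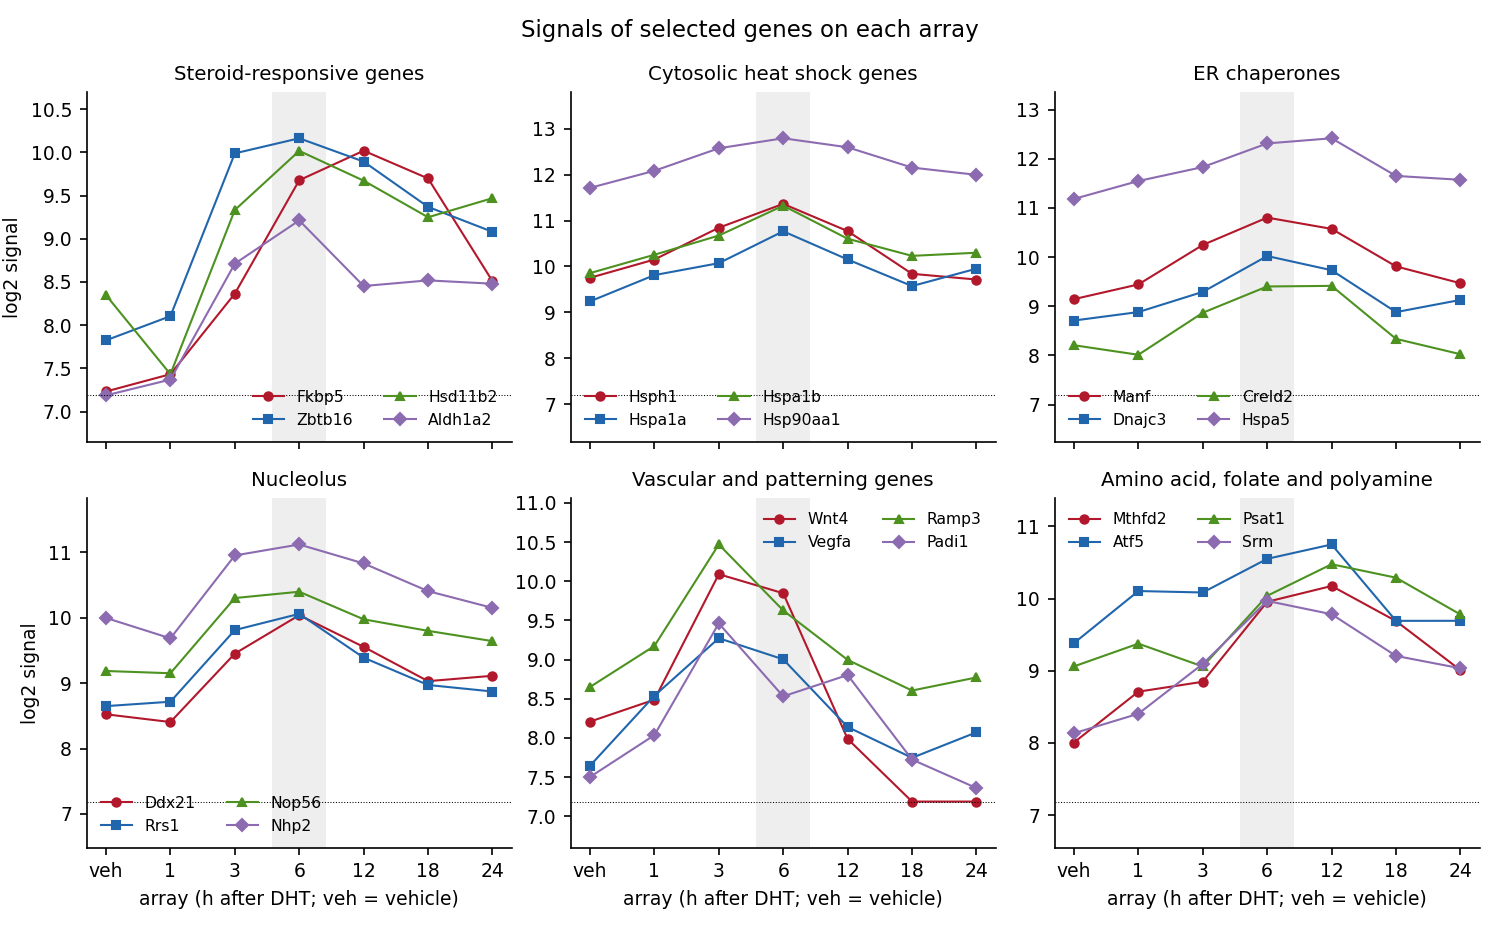
Log2 signal of 24 genes on the vehicle array and on the 6 DHT arrays in time order, 1 array per point, with the 6 h array shaded and the floor of 145.9 as a dotted line. The heat shock and nucleolar genes plotted have their highest point at 6 h, Hspa5, Creld2 and Fkbp5 at 12 h, and Wnt4, Vegfa, Ramp3 and Padi1 at 3 h.

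The plot of signals by array shows 3 kinds of time course around 6 h. The heat shock and nucleolar genes plotted had their highest signal there, Mthfd2, Hspa5, Creld2 and Fkbp5 were higher still at 12 h, and a set of early genes was already below its 3 h level. Wnt4, a signal needed for stromal decidualization, belonged to the last kind, with 296 on vehicle, 1089 at 3 h, 921 at 6 h (1.64) and 254 at 12 h. Vegfa, the main factor of vessel growth and permeability, had 200.2 and 513 (1.36) after a 3 h ratio of 1.63. Ramp3, a subunit of the adrenomedullin receptor, had 402 and 791 (0.98) and Ramp2 0.93, while Adm, which encodes adrenomedullin, was back near vehicle (0.29) after 1.92 at 3 h. Padi1, which converts arginine in proteins to citrulline, had 181 and 369.9 (1.03).

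Wnt4, Vegfa and Padi1 were the 2-fold higher members of a list of uterine estrogen-response genes, whose median was 0.11 over 35 members. Classical epithelial targets in it did not share their direction: Ltf, lactotransferrin, had 2736 and 2842 (0.06), Muc1, a surface mucin, -0.33, and Lcn2, lipocalin, -0.38. Among Wnt, hedgehog and patterning genes the median was 0.00. Of the 40 members 11 had their highest signal at 6 h, where 14.1% of all genes did. Hoxa11 and Hoxa10, homeobox genes of the uterine stroma, had 2355 and 4604 (0.97) and 481 and 662 (0.46). Ihh, the epithelial hedgehog signal, had a log2 ratio of 0.59, its stromal targets Gli1 and Ptch1 0.55 and 0.19, and Wnt7a, the Wnt of the epithelium, -0.45. In the list of TGF-beta and BMP genes the median was 0.00, with Gdf10, a BMP-like ligand, at 0.74 and Ltbp2, a matrix protein that resembles the binders of latent TGF-beta, at -0.75.

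The immediate early genes, transcription factors switched on within minutes of a stimulus, were mostly not above vehicle at 6 h, with 17 of 26 below 0. Fos had a log2 ratio of 0.53 after 1.42 at 3 h and Nr4a1 0.56 after 1.31. Egr1, Junb and Plk2, which had log2 ratios of 0.83, 0.62 and 2.46 at 3 h, stood at -0.10, -0.18 and -0.68. Gadd45g, a stress sensor that the title of the series points to, had 435 and 790.1 (0.86) after 2.87 at 3 h. Gadd45a had 500.2 and 409 (-0.29), and Gadd45b, under the floor on vehicle (112), had 201, with a log2 ratio of 0.00 on its next brightest probe set. Atm, the kinase that answers broken DNA, had 501 and 688 (0.46). The damage list as a whole had a median of 0.15. No member was called, where 1.28% of all genes were called higher and 1.14% lower. Cdkn1a, the cell cycle inhibitor p21, had 234 and 407 (0.80).

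The circadian clock genes were measured because the hour of death is not given and the pools may differ in it. Per1, Per2 and Cry1, repressors of the clock, had log2 ratios of 0.98, 0.65 and 0.64. Wee1, a cell cycle kinase under clock control, was under the floor on vehicle (91.9) and had 294. Nr1d1, Per3 and Cry2 had log2 ratios of -0.69, -0.73 and -0.47, and the activator Arntl had a log2 ratio of -0.07. Of 18 members 6 were above 0, and 6 had their highest signal of all arrays at 6 h, where 14.1% of all genes did. Whether time of day had a part in any ratio was not tested.

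Genes of DNA replication and of mitosis had medians of 0.00 and 0.00 at 6 h, against 0.40 and 0.58 at 12 h. Against the median of the other 6 arrays the mitosis median was -0.34, and 8 of its 36 members lay below all other arrays, where 10.9% of all genes did. Single replication genes were higher, such as Rrm1, a subunit of ribonucleotide reductase (0.72), Fen1, a nuclease of DNA synthesis (0.69), and Mcm3, of the helicase (0.57). Incenp, of the chromosomal passenger complex, had 336 and 197 (-0.77), below all the other arrays, and so had Ccnf, cyclin F, with 530.2 and 246 (-1.11). In the list of G1 genes Ccnd1, cyclin D1, had a log2 ratio of -0.17 and Rbl1, a relative of the retinoblastoma protein, -0.99.

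Contractile and matrix genes had medians of 0.01 and 0.08, with single members far from them. Acta1, the skeletal muscle actin, had 371 and 1257 (1.76), and a 3 h ratio of -0.28 and a 12 h ratio of 2.85. Against the median of the other 6 arrays Acta1 had a log2 ratio of -0.22 at 6 h, since the later arrays were higher still. Of the 9 skeletal muscle markers above the floor 0 were above 0, and Ckm, muscle creatine kinase, had a log2 ratio of -0.58. P4ha1, a subunit of the prolyl hydroxylase that matures collagen, had 254 and 587 (1.21), and Serpinh1, the collagen chaperone, 5057 and 8219.6 (0.70). The fibrillar collagen genes Col1a1 and Col3a1 had log2 ratios of 0.60 and 0.50, and on the next brightest probe sets of -0.32 and 0.23. On the other side Col14a1, a collagen that links fibrils, had 321 and 152 (-1.07), and Mmp11, a stromal protease, 1059 and 428 (-1.31). Krt6a, a keratin of stratified epithelium, had 896 and 2284 (1.35), with a second probe set at 1.51, and Krt13 0.93. The median of its list was 0.00.

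Among genes at the floor on vehicle, Abcf2, an ATPase of the ABC family, had 59.0 and 489.7, at least 3.36-fold higher. Col9a1, a collagen of cartilage, had 119 and 489.6, at least 3.36-fold, and Glipr2, a Golgi protein, 144 and 437, at least 2.99-fold. Some genes were apart at 6 h with no like ratio at 3 or 12 h. Of these Cacna1g, a calcium channel, had 141 and 314 (at least 2.15-fold), Bcl3, a cofactor of NF-kappa B, 116 and 294 (at least 2.02-fold), Cherp, a calcium regulator of the ER, 420.0 and 861 (1.04), Acsm2 164 and 329 (1.01) and Gfpt2, of hexosamine synthesis, 155 and 309 (1.00). All of these except Cherp were dim on both arrays. Bcl3 was above the floor on the 6 h array alone. Only that array kept it among the genes, so its place above the other arrays follows from the selection.

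The lower side held few members of the lists, and its bright part held probe sets that were low on the 6 and 12 h arrays and not on their neighbours. Of the 101 lower probe sets 16 (15.8%) were low at both 6 and 12 h, by at least 0.5 at 12 h, and within 0.5 of vehicle at 1, 3 and 18 h. Of the 105 higher ones 4 (3.81%) had the mirror image. The 16 were chosen for this course and were bright, with a median vehicle signal of 1696 against 408 for the other lower probe sets, and 11 of them were also at least 0.5 lower at 24 h. They include Sod1, the superoxide dismutase, with 6159.8 and 2647 (-1.22), Sdc4, a cell surface proteoglycan, with 4209.6 and 1502 (-1.49), Gnb1, a G protein subunit, with 2629 and 1090.0 (-1.27), Trnt1, which adds the end of tRNA (-1.51), Sat1, given with the polyamine genes, and Klf13, a transcription factor of the Krüppel-like family (-1.45), whose next brightest probe set had a log2 ratio of 0.04. The next brightest probe set of Gnb1 had a log2 ratio of -0.84. The array carries probe sets for the strand opposite to the actin and Gapdh transcripts as controls. The 5 of these above the floor on vehicle averaged -0.97 at 6 h, between -1.19 and -0.74, and -1.18 at 12 h and -0.69 at 24 h, against -0.03, 0.13 and 0.24 at 1, 3 and 18 h. Their part in the lower calls was not tested.

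Actin itself shows the split. On the maker's own control for the 3 prime end of the actin (Actb) transcript the signal was 28673 on vehicle and 28928 at 6 h, a log2 ratio of 0.01. On the gene's other probe sets of the array it was 3732 and 980.2 (-1.93) on the brighter and 3441 and 966 (-1.83) on the next. The measures of Actb thus disagree, and its lower calls are not read as a lower Actb level. The 6 own-strand controls averaged 0.03, and the ratio of 3 prime to 5 prime signal, a measure of RNA integrity, was 1.14 on vehicle and 1.03 at 6 h for actin. The 9 spike-in controls averaged -0.26 at 6 h, between -0.45 and -0.03, and 0.57 at 3 h and -0.36 at 12 h. Their bearing on the other ratios was not tested.

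**Figure D4:**
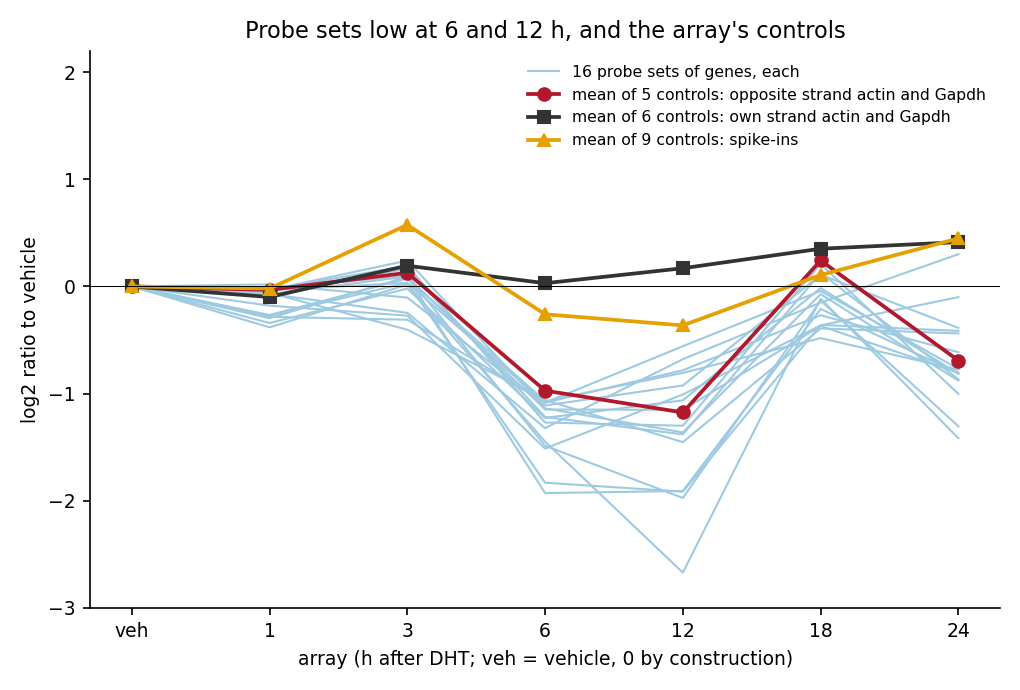
Log2 ratio to vehicle on each of the 6 DHT arrays for the 16 probe sets chosen because they were low at 6 and 12 h and near vehicle at 1, 3 and 18 h (thin lines), with the means of 5 opposite-strand and 6 own-strand controls of actin and Gapdh and of 9 spike-in controls (thick lines). The opposite-strand controls lie at -0.97 at 6 h and -1.18 at 12 h, while the own-strand controls lie at 0.03 and 0.17.

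Lower probe sets outside that set were dimmer at the median, with a vehicle signal of 408 against 1696. Krt81, a hair keratin, had the lowest ratio, with 963 on vehicle and 142, under the floor, at 6 h, at least 6.60-fold lower, and a signal of 858 at 18 h. Ada, adenosine deaminase, had 756 and 259.8 (-1.54), with 1198 at 3 h and 59.7 at 18 h, so its signal varied widely from array to array. Crx, a transcription factor of photoreceptors, had 507 and 178 (-1.51), Dyrk1b, a kinase, 692 and 262 (-1.40), and Ltbp3, which binds latent TGF-beta, 726 and 284 (-1.35). Ltbp3 fell outside the set only through its 1 h ratio of -0.51, with -0.89, -0.08 and -0.81 at 12, 18 and 24 h. Bcl2l10, an inhibitor of cell death, was at the floor at 6 h (445 and 144), and its second probe set had a log2 ratio of -0.13. The pancreatic protease gene Ctrl had 644 and 253 (-1.35). Ppfibp2 (384 and 112) and Prss30, a serine protease (386 and 129.9), were under the floor at 6 h. Gpx4, the peroxidase that protects membrane lipids, had 965 and 461 (-1.07), lower than on every other array.

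Of the lists, the interferon-induced genes had 21 of 26 members below 0 and a median of -0.19. No member was called, where 1.28% of all genes were called higher and 1.14% lower. Ifi204, a DNA sensor, had 724 and 393 (-0.88) and Usp18, which restrains interferon signalling, 355 and 214 (-0.73). Fatty acid genes had 18 of 26 below 0, with Lpin1, of triglyceride synthesis, at -0.74 and Pnpla2, the lipase that releases stored fat, at -0.64. Txnip, which restrains glucose uptake, was bright with 6565 and 3946 (-0.73), and Foxo3, a transcription factor of starvation and stress, had 2521 and 1093 (-1.21).

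Markers of the tissues of the uterus were above the floor on both arrays. Smooth muscle genes were bright, with a summed signal of 42718 on vehicle and 41023 at 6 h over the list and a median ratio of -0.11. Stromal genes summed to 51480 and 53251, with a median log2 ratio over genes of 0.07. Epithelial genes summed to 24260.0 and 22945, with a median of -0.18 and 11 of 17 below 0. In bulk tissue fewer cells of a type and less RNA per cell cannot be told apart. Markers of tissues other than the uterus were also measured. The 9 adipocyte genes had a median of -0.37, with 7 below 0 and a summed signal of 8678 on vehicle and 7336 at 6 h. Adipoq, the adipocyte hormone adiponectin, had 2468 and 1892 (-0.38). Lep, leptin, was the exception with 390.5 and 971 (1.31), and it was highest at 1 h (1210.5). Genes of ovary and oviduct had a median of -0.33 over 6, with Ovgp1, of oviduct secretion, at -0.70, and those of skeletal muscle -0.26. The 6 ovary and oviduct genes summed to only 1950 on vehicle, and Ovgp1 is also a member of the epithelial list. Whether any such tissue was attached was not tested. Against the median of the other 6 arrays the adipocyte and the ovary and oviduct medians were 0.03 and 0.02. Macrophage genes had a median of -0.08, endothelial genes of 0.00 and B and plasma cell genes of -0.26. Of the defining T cell, red blood cell and mesothelial genes fewer than 5 in each list were above the floor. The part of these cell types in the ratios of other genes was not tested.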

How the data were processed

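RNA of pooled uteri, 20 µg, was labelled for 1 Affymetrix U74Av2 array per group. The authors deposited intensity on a linear scale, computed with MAS5 (version not given in the sources used here) per the submitters' processing notes. Trimmed means of the arrays lay between 499.6 and 499.9 over the 2nd to 98th percentile, which shows a common scaling, and it was kept. Detection calls were not used here. With arrays, their number limits the precision. Probe sets were named through the platform's annotation, with symbols updated by gene number. Signals were floored at 145.9, log2 was taken, and the 6 h array was compared with vehicle at 2-fold with the higher signal at least 291.8, over all 12422 probe sets. A gene took its brightest probe set among those with a mean floored log2 above the floor, which a higher signal on any of the 7 arrays meets. With 1 array a side no statistical test was made; the code that makes the calls was tested on simulated data. Members, lists and motifs were chosen with earlier results of these data known. List symbols were matched directly and through a short table of older names, not through all synonyms as planned, since synonyms gave wrong genes. Named genes are the 12 highest and 12 lowest with a like neighbour time, 5 each way without one, 5 each way farthest outside the other arrays, the 4 largest bounds each way, list members at 2-fold or at the ends of their list, the Gadd45 genes and Atm; other genes were named after their values were seen. Promoters came from RefSeq, assembly GRCm38.p6. Alternatives changed the floor, scaling, reference array, threshold, filter, pseudocount and probe set. Python 3.11.15, numpy 2.4.6 and pandas 2.3.3 were used.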

Additional observations from a re-analysis of the deposited data

Results flagged for a closer look

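Wnt4 and Kdelr2 stood on opposite sides of vehicle at 6 h and at a later time. The log2 ratio of Wnt4 at 6 h minus that at 18 h was 2.66, and minus that at 24 h also 2.66. Wnt4 was at the floor at 18 and 24 h, so both are lower bounds. For Kdelr2 the ratio at 6 h minus that at 18 h was -2.25, with 458 at 6 h and 2181 at 18 h. Kdelr2 had log2 ratios to vehicle of -1.13, -1.66, 1.12 and -0.19 at 6, 12, 18 and 24 h. The opposite-strand controls of actin and Gapdh averaged -0.97, -1.18, 0.24 and -0.69 at these times. A link between these courses was not tested. Each time has 1 array, so the differences of Wnt4 and Kdelr2 between times were not tested either.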

How the results depend on the processing

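The counts of called probe sets, 105 higher and 101 lower, were 334 and 436 with a floor at the 20th percentile, 41 and 32 with one at the 60th, 26 and 38 against the median of the other 6 arrays, 470 and 454 at 1.5-fold and 15 and 7 at 3-fold. Without the 16 lower and 4 higher probe sets apart at both 6 and 12 h, a choice made after seeing the data, they were 101 and 85. Lists with a median of at least 0.2 numbered 11, and 6 against the other arrays; those at -0.2 or lower numbered 4, and 1 with a floor at the 60th percentile, 2 against the other arrays and 1 with no filter. The median of genes shared by androgen and glucocorticoid receptors (0.59) was 0.13, 0.29, 0.18, 0.13 and 0.35 with the lower floor, the higher floor, the other arrays as reference, no filter and the next brightest probe set. ER chaperones (0.53) had 0.20 with the higher floor and 0.26 against the other arrays, the nucleolus (0.46) 0.29 and 0.30, and heat shock genes (0.54) 0.27 against the other arrays. The sign turned against the other arrays for adipocytes (0.0261), ovary and oviduct (0.0194) and Acta1 (-0.22), and, among genes named at 2-fold by rule, on the next brightest probe set for Klf13 (0.036) and Sec62 (0.37). The cause was not tested. Of 62 named genes at 2-fold, 24 stayed so against the other arrays and 50 with a pseudocount of 50. With a floor at the 60th percentile 36 of 56 did, and on the next brightest probe set 3 of 6. No paired analysis was possible because each group has 1 array and the labels give no shared replicate numbers. Signals near the floor limit the dim genes.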

Other observations

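Genes outside the lists were looked at after their values were seen. Several of those called higher belong to transport between nucleus and cytoplasm, so all genes of importins, exportins, Ran and its partners and nucleoporins were taken by symbol, a set with no standing beyond description. Of 36 above the floor, 28 were above 0 and 8 below, with a median log2 ratio of 0.32 at 6 h (0.23 at 3 h and 0.45 at 12 h against the same vehicle array). Those at least 2-fold higher were 5: Nup107, of the nuclear pore, with signals of 254 and 571, Cse1l, which returns importin alpha to the cytoplasm, with 219.6 and 491, Ipo5, an importin that carries ribosomal proteins, with 386 and 822, Xpot, the exporter of tRNA, with 373 and 785, and Rangrf, a Ran-binding protein, with 292 and 597. The next brightest probe set of Ipo5 had a log2 ratio of -0.27, opposite in sign. Ran itself was bright, with 5097 and 8181, a log2 ratio of 0.68. Nup50, of the nuclear basket, was the lowest with -0.52, and its next brightest probe set had a log2 ratio of 1.01.

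Some genes called higher are ribosome factors that the nucleolus list does not hold. Pno1, which matures the small subunit, had 324 and 715, Bysl, which acts in the same step, 371 and 795, Ppan, of the large subunit, 226 and 488, and Surf2 305 and 644. Signalling genes outside the lists were Pth1r, the receptor of parathyroid hormone and its related protein, with 316 and 948 (1.58 on the log2 scale) and a 12 h ratio of 0.02, Pkdcc, a secreted kinase, with 602 and 1771, and Cd82, a tetraspanin, with 816 and 1906. For Cd82 the next brightest probe set had a log2 ratio of -0.19, also opposite in sign. Dim genes called lower include Mup5, a urinary protein of the liver, with 479.9 and 215, Otp, of the hypothalamus, with 325 and 119, and Psg19, of the placenta, with 528 and 238.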
